A study of Mus musculus with 6 samples.

Results

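The genes described here encode the machinery that carries proteins across the nuclear envelope, together with the 14-3-3 proteins. They were taken by symbol: the nucleoporins (Nup), importins (Ipo, Kpna and Kpnb), transportins (Tnpo), exportins (Xpo), Ran-binding proteins (Ranbp), the GTPase Ran, its activating protein Rangap1 and the 14-3-3 genes (Ywha). The rule gave 57 genes of 18193 with a probe set that names a single gene. Of these, 55 passed a filter on dim signals and were tested among 13194 genes. Ranbp17 and Ranbp3l did not pass it and have no test.

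The nuclear pore is a ring of nucleoporins that spans the nuclear envelope, and large cargo passes through it only on carrier proteins of the karyopherin family. Importins release their cargo in the nucleus where Ran is bound to GTP, exportins bind theirs there, and the gradient of Ran-GTP sets the direction of both. Class IIa histone deacetylases such as HDAC7 shuttle by this route: once phosphorylated they are bound by 14-3-3 proteins and leave the nucleus through the exportin CRM1, encoded by Xpo1. A form of HDAC7 that cannot be phosphorylated escapes this export and stays in the nucleus.

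The study infected CD8 T cells from C57Bl/6 spleens that carry the P14 T cell receptor, which recognises the gp33 peptide of a mouse virus. Spleen cells were activated for 24 h with gp33 and then given a retrovirus encoding GFP fused to a phosphorylation deficient HDAC7, and cells with and without GFP were sorted from these cultures. Total RNA of 3 GFP negative (control) and 3 GFP positive (mutant) samples was read on Affymetrix Mouse Genome 430 2.0 arrays. The control cells were thus exposed to the same virus, and no empty-vector cells enter the comparison made here. Replicates are called biological in the labels, but nothing says that each came from its own mouse or culture, so the p-values speak only of the spread among these 6 samples. With 3 arrays a group the precision is limited.

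The median log2 signal of an array was 1.69 to 1.72 in the GFP negative and 1.62 to 1.66 in the GFP positive samples. The 3′ minus 5′ difference of the actin control probe sets was 0.43 to 0.51 and 0.48 to 0.53 on the log2 scale. All 6 CD8 T cell markers read passed the dim filter, with a summed linear signal of 9433 to 9798 in the GFP negative and 8313 to 9005 in the GFP positive samples. Gzmb, the granule protease granzyme B, made up most of that sum in the GFP negative but not in the GFP positive samples. It was lower in the GFP positive samples (-0.998 ± 0.098, limma adjusted p = 2.1e-04). The receptor genes Cd8a (1.24), Cd8b1 (1.15), Cd3g (0.67) and Cd3e (0.55) were higher by limma, and Cd3d (-0.05) did not pass. The summed markers of each of 6 other cell types lay between 3.12 and 39.2 over all samples. Of these, 3 of 4 B cell, 2 of 6 myeloid, 2 of 2 dendritic, 1 of 2 CD4 T cell, 0 of 2 NK and 0 of 2 erythroid markers passed the dim filter. The log2 signal of 18S ribosomal RNA was highest in GFP negative 1 (9.98), and the spike-in controls BioB and BioC in GFP positive 3 (6.10 and 7.33), so results were also recomputed without that pair of arrays. The RNA came from whole sorted populations, in which fewer cells of a type and less RNA per cell cannot be told apart. The part of these array and marker differences in the results was not tested. As a check of the labels, the Hdac7 probe set that was brighter on average rose from 4.83 ± 0.03 to 8.15 ± 0.05 (SD, n = 3 each), a 9.95-fold difference. A second Hdac7 probe set was lower, from 6.74 to 6.19 (-0.55, limma adjusted p = 0.0019 over probe sets). In the GFP negative samples the second was the brighter one, so the choice of the first rests on the GFP positive samples.

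Genes of nuclear transport were more often lower than higher in the cells with the HDAC7 mutant, by modest amounts. Of the 55 tested, 16 (29.1%) were lower and 6 (10.9%) higher by limma with Benjamini-Hochberg adjusted p under 0.05. Over all 13194 genes tested, 17.5% were lower and 24.6% higher, so 42.1% passed in either direction, against 40% of the transport and 14-3-3 genes. The median log2 difference, GFP positive minus GFP negative, was -0.10 for the transport and 14-3-3 genes and -0.02 for all genes. All 3 GFP positive values lay below all 3 GFP negative values for 23 of the 55 genes (41.8%) and above them for 8 (14.5%), against 24.2% and 29.7% of all genes tested (53.8% in either direction). These comparisons of shares describe the list and carry no test. The count of lower genes was 8 without GFP negative 2, 9 without GFP negative 3, 10 without GFP positive 3, 6 without GFP negative 1 and GFP positive 3 together, and 9 or 26 after median centring over all probe sets or over those past the filter; the count of higher genes was 2 without that pair.

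**Figure D1:**
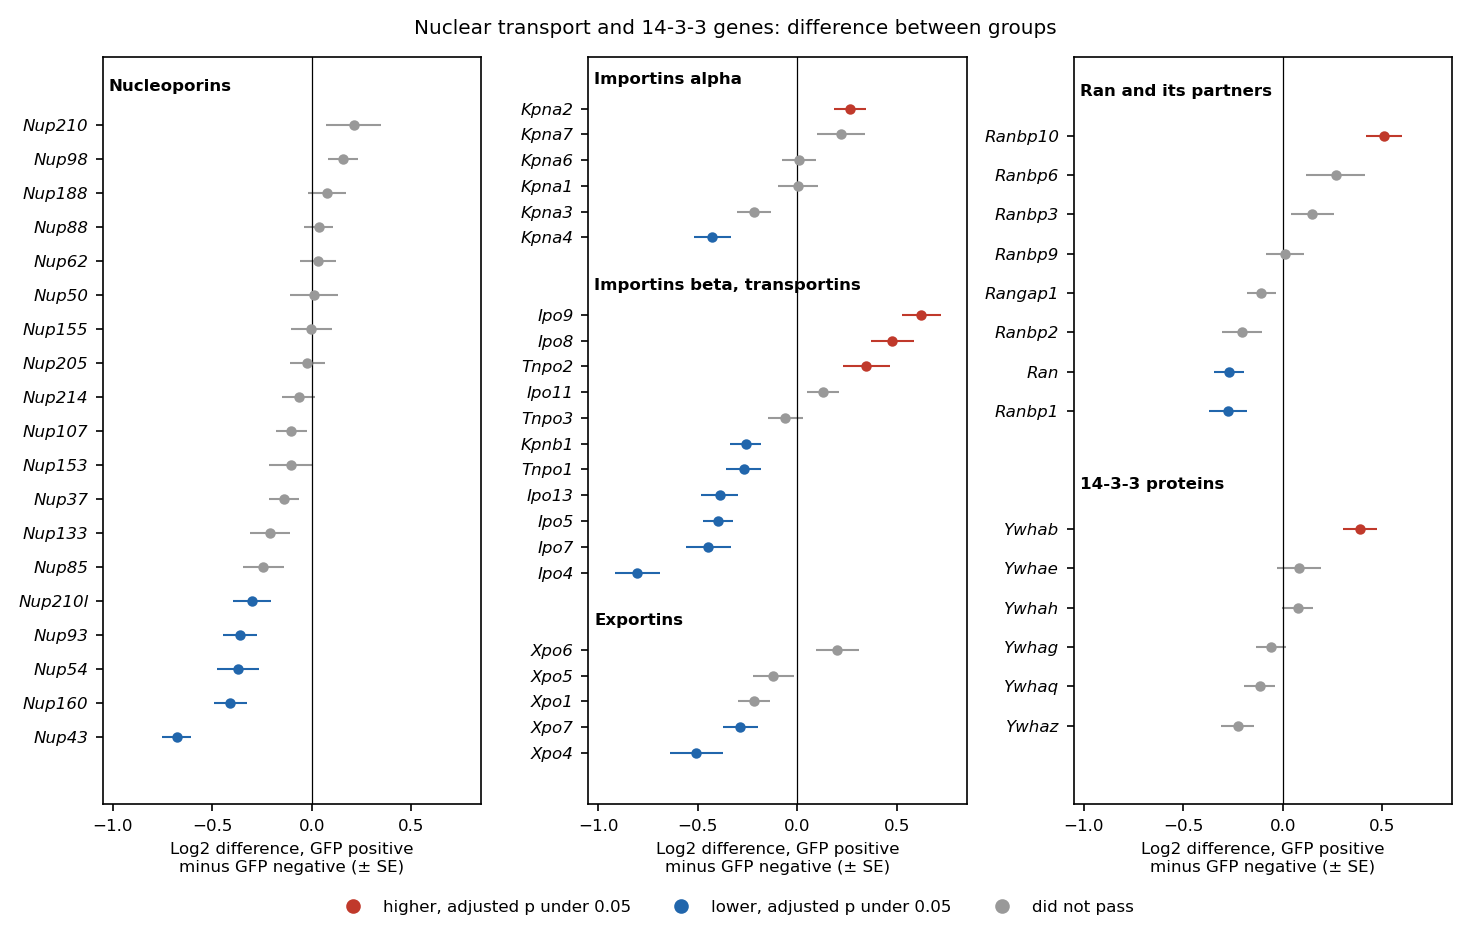
The log2 difference between GFP positive and GFP negative samples (x axis, with its SE) for each of the 55 tested genes, grouped by role; blue genes were lower and red genes higher at an adjusted p under 0.05. Most coloured points sit left of 0, and none reaches a log2 difference of 1 in size.

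The changes were small beside those of other genes. No called transport or 14-3-3 gene reached a 2-fold difference, whereas 703 of all called genes (12.7%) did. The median size of the difference was 0.39 on the log2 scale among the 22 called transport and 14-3-3 genes and 0.52 among all called genes. The 33 genes that did not pass had differences between -0.24 and 0.27. None of the 22 changed sign in any of the 17 alternative settings tried, and 7 kept their call in all 17: Ipo4, Ipo13, Nup43, Nup160 and Nup93 among the lower genes, Ipo9 and Ranbp10 among the higher.

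**Figure D2:**
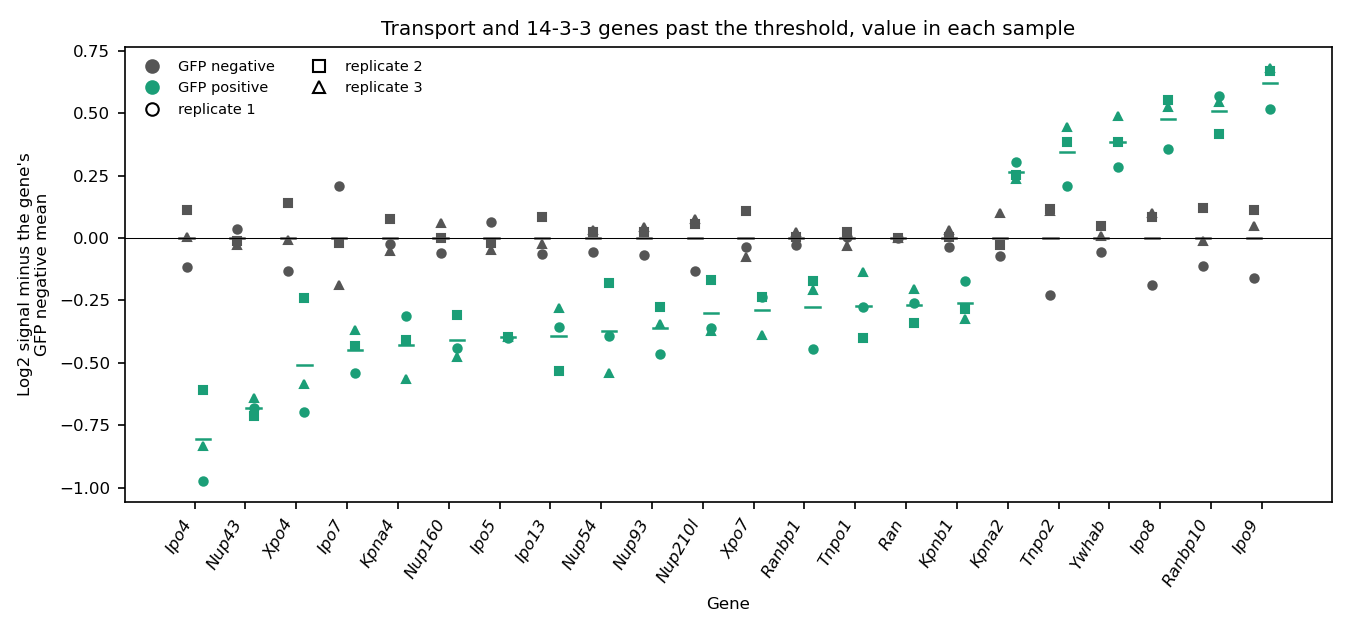
Log2 signal of each sample minus the gene's GFP negative mean (y axis) for the 22 genes that passed, ordered from lowest to highest difference; shapes mark the replicate number and bars the group mean. For every gene shown the 3 green GFP positive points lie on one side of the 3 grey GFP negative points. The genes were picked by their test on these same values, so the separation adds no support. Over all genes tested, 53.8% had groups without overlap.

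To show the sequence before genes called in each direction, promoters were read for 3 short motifs common near the start sites of housekeeping genes: the E-box CACGTG, bound by MYC and related factors, the NRF1 site and the ETS site CCGGAAG. RefSeq windows on GRCm38.p6, from 250 bases before to 50 bases after the start site, matched 45 of the 57 genes. Each motif was searched on both strands and counted by itself, whether or not it overlapped another. A gene counted as holding a motif if any of its windows did. The E-box was present in 8 of 45 genes (17.8%), against 11.2% of the tested genes with a window. Counted by window, which is a different measure, the E-box was in 7.15% of all 32851 windows. It was found in 5 of 12 lower genes (41.7%), 1 of 4 higher genes and 2 of 27 that did not pass. Among all genes called lower, 14.9% held it. The NRF1 site was in 6 of the 45 genes (13.3%, against 2.15% of tested genes): 1 of 12 lower, 0 of 4 higher and 5 of 27 that did not pass. The ETS site was in 7 (15.6%; 18.7% of tested genes): 2 of 12 lower, 0 of 4 higher and 5 of 27 that did not pass. A match of letters is a description of the sequence, and none of these shares was tested.

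The 60-base stretches around the E-box, all before the start site, are shown for 4 lower genes and for 1 higher gene, Tnpo2, because the same letters stand before genes that moved in either direction. Each runs 5′ to 3′ on the gene's strand, with the E-box in capitals. They lie at chr5:129020011-129020070 on the plus strand (Ran), chr7:110018151-110018210 plus (Ipo7), chr5:92435267-92435326 minus (Nup54), chr8:94214362-94214421 plus (Nup93) and chr8:85036711-85036770 plus (Tnpo2, 1 of its 2 E-boxes).
Ran: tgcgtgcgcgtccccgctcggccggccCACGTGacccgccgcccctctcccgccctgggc
Ipo7: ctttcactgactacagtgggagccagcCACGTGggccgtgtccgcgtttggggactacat
Nup54: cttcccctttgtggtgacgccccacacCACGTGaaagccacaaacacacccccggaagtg
Nup93: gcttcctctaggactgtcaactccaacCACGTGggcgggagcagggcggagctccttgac
Tnpo2: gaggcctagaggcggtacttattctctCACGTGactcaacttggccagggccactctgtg
Counted from the start site, the first base of the E-box was at -118 in Ran, -137 in Ipo7, -100 in Nup54, -175 in Nup93 and -155 in Tnpo2.

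Among the nucleoporins, 5 of 19 (26.3%) were lower, 0 were higher by limma, and 14 did not pass. The shares over all genes tested were 17.5% lower and 24.6% higher. At an unadjusted limma p under 0.05, 6 nucleoporins were lower and 0 higher, against 3006 lower and 3693 higher of all 13194 genes. The median difference of the nucleoporins was -0.10. The Y complex, the scaffold that forms the outer rings of the pore, had 6 members among the genes taken by symbol. All had a negative difference, as did 33 of the 55 transport and 14-3-3 genes and 6960 of all 13194. Of the 6, 2 (33.3%) passed, against 42.1% of all genes tested. Nup43, a peripheral Y complex subunit, measured 6.79, 6.74 and 6.72 in GFP negative 1 to 3 and 6.07, 6.03 and 6.11 in GFP positive 1 to 3. The groups were far apart against a spread of under 0.1 within each. The difference was -0.68 ± 0.07 (SE), a 1.60-fold fall with a limma adjusted p of 3.1e-04, and a second Nup43 probe set gave -0.78.

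Nup160, one of the large Y complex scaffold proteins, was at 8.17, 8.23 and 8.29 in GFP negative and 7.79, 7.92 and 7.75 in GFP positive cells (-0.41 ± 0.08, limma adjusted p = 0.0054). The groups did not overlap. The other Nup genes of the Y complex did not pass: Nup85 -0.24, Nup133 -0.21, Nup37 -0.14 and Nup107 -0.10. A second Nup85 probe set was lower by itself (-0.60 ± 0.09, limma adjusted p = 0.0018 over probe sets), and the brightest one passed without GFP positive 2 (-0.34, limma adjusted p = 0.028). In Nup133 a pair of dimmer probe sets was lower too (-0.38 and -0.39, limma adjusted p = 0.014 and 0.035 over probe sets). Sec13 and Seh1l, Y complex subunits outside the symbol rule, had -0.24 and -0.20, and Sec13 passed (limma adjusted p = 0.034). With the mean of its probe sets Seh1l had -0.003 (limma adjusted p = 0.98), so no direction can be given for it.

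In the inner ring, which anchors the central channel, Nup93 was lower: 7.75, 7.85 and 7.87 in GFP negative and 7.36, 7.55 and 7.48 in GFP positive samples. Every GFP positive value lay under every GFP negative one, and the difference was -0.36 ± 0.08 (limma adjusted p = 0.010). Its inner ring partners Nup155 (0.00), Nup205 (-0.02) and Nup188 (0.08) did not pass, so members of one subcomplex differed in their calls.

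Nup54, an FG nucleoporin of the central channel, was at 7.96, 8.04 and 8.04 in GFP negative and at 7.62, 7.83 and 7.47 in GFP positive cells. GFP positive 3 was the lowest sample. The difference was -0.37 ± 0.10 (limma adjusted p = 0.023), and all 5 of its probe sets past the filter were negative, 4 of them passing. The call on the brightest one was lost without GFP negative 2 (adjusted p = 0.064), GFP negative 3 (0.070), GFP positive 1 (0.0503) or GFP positive 3 (0.063), with differences of -0.36 to -0.29. Median centring over all probe sets lost it too (-0.30, adjusted p = 0.051). So did dropping both GFP negative 1 and GFP positive 3 (-0.31, 0.096). The probe sets that passed are of the _s_at class, of the _x_at class, which can match other transcripts, or dim (mean 1.59). The remaining one did not pass (-0.23, limma adjusted p = 0.096 over probe sets). Without the _x_at and _s_at classes the Nup54 difference was -0.23 (adjusted p = 0.078). Its channel partner Nup62 showed 0.03, with 4 of 5 probe sets positive and none passing by limma, and its sign turned to -0.09 under median centring over probe sets past the filter.

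Nup210l, a dim paralogue of the membrane nucleoporin Nup210, fell from a mean of 3.07 to 2.76 (-0.30, limma adjusted p = 0.038). That call was lost without GFP negative 2 (adjusted p = 0.106), GFP negative 3 (0.120), GFP positive 1 (0.086) or GFP positive 3 (0.104), with differences of -0.26 or -0.27. With 32 added in linear units its difference was -0.06 (adjusted p = 0.077). Nup210 itself had 0.21 and did not pass. On the cytoplasmic face Nup214 (-0.07) and Nup88 (0.03) did not pass, nor did Nup98 (0.16), which sits on both faces, or the basket nucleoporins Nup50 (0.01) and Nup153 (-0.10). A second Nup98 probe set was higher (0.47, limma adjusted p = 0.019 over probe sets). Nup153 had a dim second probe set, mean 2.15, that was higher (0.62, limma adjusted p = 0.0028 over probe sets), and the mean of its probe sets gave 0.17.

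Among the importins alpha, the adaptors that read the classical nuclear localisation signal, 1 of 6 was higher and 1 lower. That is 16.7% in each direction, beside 24.6% higher and 17.5% lower over all genes tested. Kpna2, the adaptor abundant in dividing cells, measured 10.22, 10.27 and 10.40 in GFP negative and 10.60, 10.55 and 10.53 in GFP positive samples. The groups did not overlap, and the difference was 0.27 ± 0.08 (limma adjusted p = 0.031). The call was lost without GFP negative 1 (0.23, adjusted p = 0.099), GFP negative 2 (0.088), GFP positive 1 (0.067), GFP positive 2 (0.068) or GFP positive 3 (0.056), and the difference was 0.15 (adjusted p = 0.18) under median centring over probe sets past the filter.

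Kpna4 went the other way, from 8.34, 8.44 and 8.31 to 8.05, 7.95 and 7.80 (-0.43 ± 0.09, limma adjusted p = 0.0072). All GFP positive samples were below all GFP negative ones. With the mean of both its probe sets the difference was -0.27 and still passed; without GFP negative 1 and GFP positive 3 together it was -0.37 (adjusted p = 0.052). Kpna3 had -0.22 (adjusted p = 0.076) and Kpna6 0.01. Kpna7 was near the filter, with means of 1.30 and 1.52. Kpna1 gave 0.00 on its brightest probe set, while a dimmer one was lower (-0.47, limma adjusted p = 0.0041 over probe sets); its sign varied among settings, so no direction can be given.

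The importins beta and transportins, the carriers themselves, were the role with the highest share of calls: 9 of 11 (81.8%) passed, 6 lower and 3 higher, with a median of -0.26, beside 42.1% of all genes in either direction, 17.5% lower and 24.6% higher. Of these 9, Kpnb1, Tnpo1 and Tnpo2 lost their call in 9, 10 and 11 of 17 alternatives. Ipo4, a carrier for histones and ribosomal proteins, showed the largest fall of the 55 genes. It measured 6.43, 6.66 and 6.55 in GFP negative and 5.57, 5.94 and 5.71 in GFP positive cells. The groups were separated by more than the range within either. The difference was -0.80 ± 0.11, 1.75-fold lower (limma adjusted p = 9.7e-04), and a second probe set gave -0.53.

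Ipo5 and Ipo7, which carry ribosomal proteins and other basic cargo, were both lower. Ipo5 went from 7.86, 7.77 and 7.74 to 7.39, 7.40 and 7.40, with the GFP positive samples almost identical (-0.40 ± 0.07, limma adjusted p = 0.0038). Ipo7 went from 8.48, 8.25 and 8.09 to 7.73, 7.84 and 7.90 (-0.45 ± 0.11, limma adjusted p = 0.0145), without overlap, though the GFP negative samples spread widely. With the mean of all probe sets, dim ones included, the differences were -0.18 (adjusted p = 0.13) for Ipo5 and -0.21 (0.077) for Ipo7. Without GFP negative 1 and GFP positive 3 together Ipo7 had -0.38 (adjusted p = 0.055).

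Ipo13, which both imports and exports cargo, measured 4.79, 4.94 and 4.83 against 4.49, 4.32 and 4.57 (-0.39 ± 0.09, limma adjusted p = 0.012). It kept its call in every setting tried, with no overlap between groups. Kpnb1, importin beta itself and the partner of the alpha adaptors, was at 9.74, 9.78 and 9.81 in GFP negative and 9.61, 9.49 and 9.45 in GFP positive samples. The difference was -0.26 ± 0.08 (limma adjusted p = 0.031), with all 4 probe sets negative. That call was lost without GFP negative 1 (adjusted p = 0.060), GFP negative 2 (0.078), GFP negative 3 (0.098), GFP positive 2 (0.080) or GFP positive 3 (0.083), with differences of -0.28 to -0.23. Its brightest probe set is of the _x_at class, which Affymetrix marks as able to match other transcripts; without that class and the _s_at class the difference was -0.13 (adjusted p = 0.30), and the call was also lost after median centring over all probe sets (-0.19, 0.093) and with the mean of probe sets (0.067).

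Tnpo1, transportin 1, which carries RNA-binding proteins with the PY signal, fell from 7.76, 7.77 and 7.72 to 7.47, 7.35 and 7.61 (-0.27 ± 0.09, limma adjusted p = 0.042). With the replicate number as a block the adjusted p was 0.054. The call was also lost without GFP negative 1 (0.0996), GFP negative 2 (0.106), GFP negative 3 (0.088), GFP positive 1 (0.076) or GFP positive 2 (0.123), with differences of -0.29 to -0.21. Its paralogue Tnpo2 had the opposite direction, from 4.69, 5.03 and 5.02 to 5.12, 5.30 and 5.36 (0.35 ± 0.12, limma adjusted p = 0.046). GFP negative 1 was the low sample of that group. The Tnpo2 call was lost without GFP negative 1 (0.23, adjusted p = 0.129), GFP negative 2 (0.054), GFP negative 3 (0.059), GFP positive 2 (0.118) or GFP positive 3 (0.131), and the mean of its probe sets gave 0.17. Tnpo3 (-0.06) and Ipo11 (0.13) did not pass. With the mean of its probe sets Ipo11 passed (0.81, limma adjusted p = 1.3e-04). That mean takes in a dim probe set given at the end.

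Ipo9 and Ipo8 were higher while their relatives Ipo4, Ipo5 and Ipo7 were lower. Ipo9, a histone carrier, rose from 6.37, 6.64 and 6.58 to 7.05, 7.20 and 7.21, which is 0.62 ± 0.10 or 1.54-fold (limma adjusted p = 0.0017). Its groups did not overlap, and its 2 other probe sets gave 0.55 and 0.21. Ipo8, the close paralogue of Ipo7, rose from 5.44, 5.71 and 5.73 to 5.98, 6.18 and 6.15 (0.48 ± 0.11, limma adjusted p = 0.0083). GFP negative 1 was again the lowest sample of both genes. The other Ipo8 probe sets were dim and gave 0.10 and -0.13, and the mean of all of them 0.15 (adjusted p = 0.18). Without GFP negative 1 and GFP positive 3 together Ipo8 had 0.36 (adjusted p = 0.065).

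Of the 5 exportins, 2 (40%) were lower and 0 higher by limma, beside 17.5% and 24.6% of all genes tested. At an unadjusted limma p under 0.05, 3 exportins were lower and 0 higher, against 3006 and 3693 of all 13194 genes. Xpo1 (CRM1), the exportin of class IIa deacetylases, measured 9.34, 9.36 and 9.33 in GFP negative and 9.06, 9.23 and 9.10 in GFP positive samples. The groups did not overlap, yet the difference of -0.22 (95% interval -0.40 to -0.03) missed the threshold with a limma adjusted p of 0.059. It passed without GFP positive 2 (-0.27, adjusted p = 0.0475), with 32 added in linear units (0.015) and with the 60th percentile filter (0.040). A second Xpo1 probe set gave -0.09.

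Xpo4, a carrier of several growth-control proteins, fell from 4.68, 4.96 and 4.81 to 4.12, 4.58 and 4.23 (-0.51 ± 0.13, limma adjusted p = 0.017). GFP positive 2 came closest to the GFP negative group. The call was lost without GFP negative 2 (-0.44, adjusted p = 0.058) or GFP positive 3 (-0.47, 0.056), and with the mean of all its probe sets the difference was -0.17 (0.087). That mean takes in Xpo4 probe sets under the dim filter, and only 1 was past it. Xpo7, an exportin with a wide range of cargo, fell from 7.53, 7.68 and 7.49 to 7.33, 7.33 and 7.18 (-0.29 ± 0.09, limma adjusted p = 0.032). That call was lost without GFP negative 1 (0.065), GFP negative 2 (0.105), GFP negative 3 (0.051), GFP positive 2 (0.055) or GFP positive 3 (0.092), with differences of -0.32 to -0.23, and the mean of its probe sets gave -0.12. Xpo5, the exportin of microRNA precursors (-0.12), and Xpo6, the exportin of actin (0.20), did not pass.

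Of 8 tested genes of Ran and its partners, grouped here by symbol alone, 2 (25%) were lower and 1 (12.5%) higher. Over all genes tested these shares were 17.5% and 24.6%. Ran, the GTPase that sets the direction of transport, was 11.36 in each GFP negative sample and 11.10, 11.02 and 11.16 in the GFP positive samples. The groups did not overlap and the difference was -0.27 ± 0.08 (limma adjusted p = 0.023). All 5 Ran probe sets past the filter were negative, between -0.51 and -0.11, and 4 passed. The 4 that passed are all of the _x_at class, which can match other transcripts. The remaining one did not pass (-0.11, limma adjusted p = 0.31 over probe sets). The call on the brightest was lost without GFP negative 1 (adjusted p = 0.061), GFP negative 2 (0.063), GFP negative 3 (0.070) or GFP positive 2 (0.072), with differences of -0.27 to -0.23. It too is an _x_at probe set, and without that class and the _s_at class the Ran difference was -0.11 (adjusted p = 0.28).

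Ranbp1, which helps Ran hydrolyse GTP in the cytoplasm, measured 10.89, 10.92 and 10.94 against 10.47, 10.75 and 10.71 (-0.28 ± 0.09, limma adjusted p = 0.046). GFP positive 1 was the lowest. The call was lost without GFP negative 1 (adjusted p = 0.090), GFP negative 2 (0.104), GFP negative 3 (0.122), GFP positive 1 (0.0995) or GFP positive 3 (0.061), with differences of -0.31 to -0.19. Rangap1, the GTPase-activating protein of Ran, had -0.11 (95% interval -0.28 to 0.06) and Ranbp2, the large nucleoporin that holds Rangap1 at the pore, had -0.20; neither passed.

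Ranbp10, a scaffold protein related to Ranbp9, rose from 5.43, 5.66 and 5.53 to 6.11, 5.96 and 6.08 (0.51 ± 0.09, limma adjusted p = 0.0030). Its groups did not overlap, its second probe set gave 0.58, and it kept its call in every setting tried. Ranbp9 (0.01), Ranbp3 (0.15) and Ranbp6 (0.27) did not pass. Ranbp17 stood at means of 0.96 and 1.12 and Ranbp3l at 0.73 and 0.89, under the filter level of 1.27.

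The 14-3-3 proteins bind phosphorylated class IIa deacetylases and hold them in the cytoplasm. Of the 6 genes, 1 (16.7%) was higher and 0 lower by limma, beside 24.6% and 17.5% of all genes tested. At an unadjusted limma p under 0.05, 1 of the 6 was higher and 1 lower, against 3693 and 3006 of all 13194 genes. Ywhab (14-3-3 beta) measured 10.00, 10.10 and 10.06 in GFP negative and 10.34, 10.44 and 10.54 in GFP positive samples. The groups were well apart, with a difference of 0.39 ± 0.09 (limma adjusted p = 0.0079). All 6 of its probe sets past the filter were positive and 3 passed. The call was lost without GFP negative 1 and GFP positive 3 together (0.31, adjusted p = 0.071).

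Ywhaz (14-3-3 zeta) went from 10.44, 10.50 and 10.51 to 10.37, 10.19 and 10.22, and its -0.23 (95% interval -0.42 to -0.03) missed the threshold with a limma adjusted p of 0.060. It passed without GFP positive 1 (-0.28, adjusted p = 0.030). Without the _x_at and _s_at probe sets the sign turned (0.05), and its 7 probe sets ran from -0.85 to 0.05. Ywhaq (14-3-3 theta), a form expressed in T cells, had -0.12 (95% interval -0.29 to 0.06) on its brightest probe set and did not pass. All 8 of its probe sets were negative, between -0.32 and -0.08, and 3 of the dimmer ones passed.

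The other 14-3-3 genes stood close to 0: Ywhae 0.08, Ywhah 0.07 and Ywhag -0.06. Each of these changed sign under at least 1 median centring, to -0.03, -0.04 and 0.01. A dimmer Ywhae probe set was lower (-0.39, limma adjusted p = 0.042 over probe sets).

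**Figure D3:**
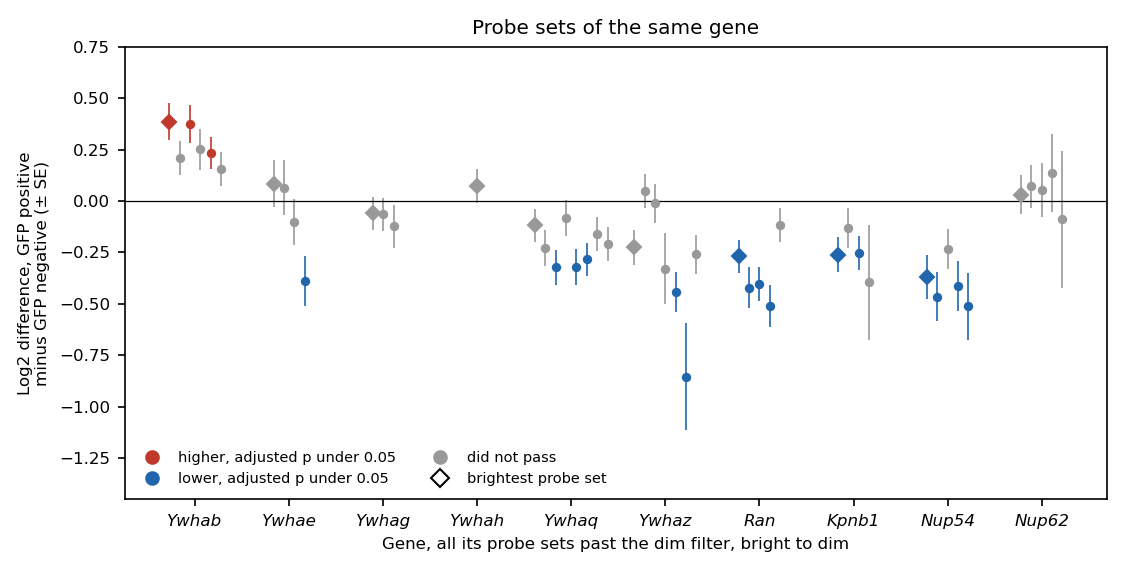
Log2 difference (y axis, with its SE) of every probe set past the dim filter for the 14-3-3 genes, Ran, Kpnb1, Nup54 and Nup62, ordered from bright to dim within a gene; diamonds mark the brightest probe set, and colours the test over probe sets. All Ywhab points lie above 0 and all Ran, Nup54 and Ywhaq points below it, while Ywhaz and Ywhae have points on both sides.

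Over all members, 88 further probe sets passed the filter, and 72 of them had the sign of the brightest one. Of the 33 that belong to called genes, 30 had the same sign, 13 passed the same way and 0 passed the opposite way. The 3 with the opposite sign were dim probe sets of Ipo5 (0.11), Ipo8 (-0.13) and Tnpo2 (-0.11). The brightest probe set was of the _x_at class for 7 of the 57 genes and of the _s_at class for 6.

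Transport genes that the symbol rule does not take were read from a separate list. Of 30 listed, 25 were measured: 9 (36%) were lower, 0 higher by limma (2 higher and 11 lower at an unadjusted p under 0.05). Of all genes tested, 17.5% were lower and 24.6% higher. The median difference of these 25 was -0.15. Without GFP negative 2 or GFP negative 3, after median centring over all probe sets, and with the mean of all probe sets, 5 were lower; without GFP positive 1, 7 were lower and 3 higher. Rangrf (Mog1), a small protein that binds Ran and stimulates release of its nucleotide, fell furthest, from 6.01, 6.18 and 6.03 to 4.21, 4.44 and 3.86. The difference of -1.90 ± 0.15, or 3.74-fold (limma adjusted p = 9.1e-05), was larger in size than that of any of the 57 genes by symbol. Rcc1, the nucleotide exchange factor that loads Ran with GTP on chromatin, was lower by -0.59 ± 0.10 (limma adjusted p = 0.0027), with 7.57, 7.62 and 7.81 against 7.01, 7.23 and 6.99.

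Xpot, the exportin of transfer RNA, went from 7.82, 7.81 and 7.63 to 6.86, 7.04 and 6.66 (-0.90 ± 0.11, limma adjusted p = 5.9e-04), and its other probe sets gave -1.31 and -1.12. Rae1, an mRNA export factor at the pore, went from 7.56, 7.66 and 7.57 to 6.83, 7.02 and 6.93 (-0.67 ± 0.08, limma adjusted p = 5.7e-04). No sample of either gene crossed the groups. With the mean of all its probe sets, those under the dim filter included, Rae1 had -0.16 (adjusted p = 0.13). Ahctf1 (ELYS), which seeds pores on chromatin, was lower by -0.41 ± 0.08 (limma adjusted p = 0.0045), and its mean over probe sets was -0.16 (adjusted p = 0.22).

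Nupl2 (-0.56, limma adjusted p = 0.033), Nupl1 (-0.40, 0.030), Pom121 (-0.29, 0.022) and Sec13 (-0.24, 0.034) passed less firmly. Nupl2 measured 3.36, 4.02 and 3.78 against 3.13, 3.36 and 2.98, with GFP positive 2 just above GFP negative 1. Its call was lost without GFP negative 2 (adjusted p = 0.093), GFP negative 3 (0.088), GFP positive 1 (0.071) or GFP positive 3 (0.106). Nupl2 also lost it with 32 added in linear units (-0.15, adjusted p = 0.083) and with the mean of its probe sets (-0.29, 0.18). Nupl1 lost its call without any one of GFP negative 1, 2 or 3 (adjusted p = 0.069 to 0.082) and without the _x_at and _s_at classes (-0.24, 0.074), and had -0.26 (0.043) without GFP positive 3. Pom121 lost it without any one of GFP negative 1, 2 or 3, GFP positive 2 or GFP positive 3 (0.053 to 0.069). Sec13 lost it without any one array other than GFP positive 2 (0.064 to 0.100). Cse1l, the exportin that returns importins alpha to the cytoplasm, had -0.20 (limma adjusted p = 0.087). The Y complex subunit Seh1l had -0.20 (limma adjusted p = 0.096), and -0.003 with the mean of its probe sets. Nutf2, the import factor of Ran, was not analysed here.

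**Figure D4:**
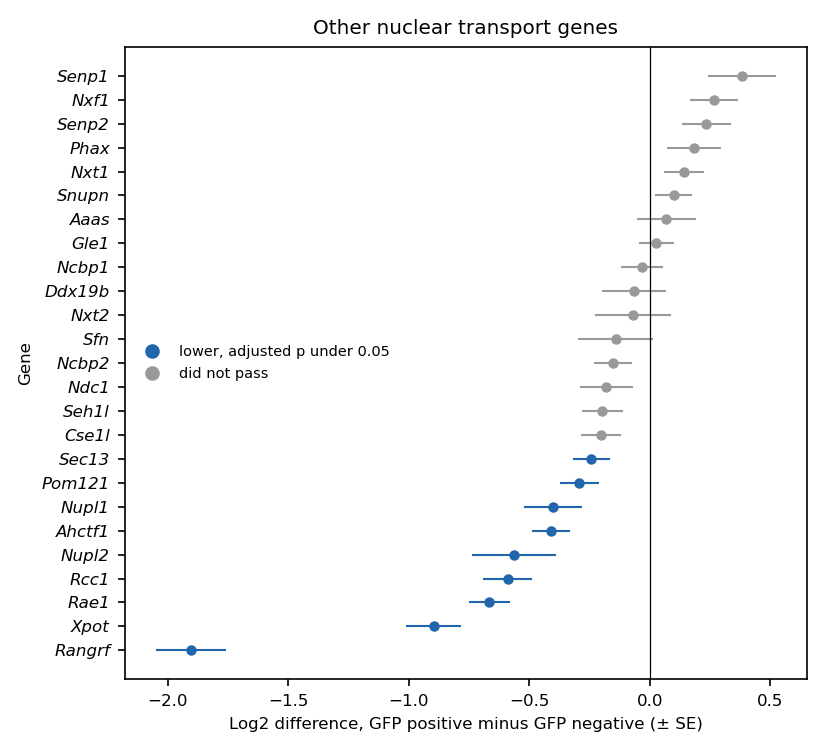
Log2 difference between GFP positive and GFP negative samples (x axis, with its SE) for the 25 measured transport genes outside the symbol rule, ordered by difference. The 9 blue genes were lower at an adjusted p under 0.05, from Sec13 at -0.24 to Rangrf at -1.90.

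Among the deacetylases that use this route, Hdac5 fell from 4.96, 5.13 and 5.09 to 3.46, 3.47 and 3.42 (-1.61 ± 0.08, limma adjusted p = 2.6e-05). The GFP positive samples agreed within 0.1 and lay far below the GFP negative ones. Hdac4 had 0.25 (adjusted p = 0.062; 0.029 without GFP positive 1) and the dim Hdac9 -0.17. A second Hdac4 probe set was higher (0.51, limma adjusted p = 0.0041 over probe sets), and the mean of its probe sets passed (0.23, adjusted p = 0.039).

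**Figure D5:**
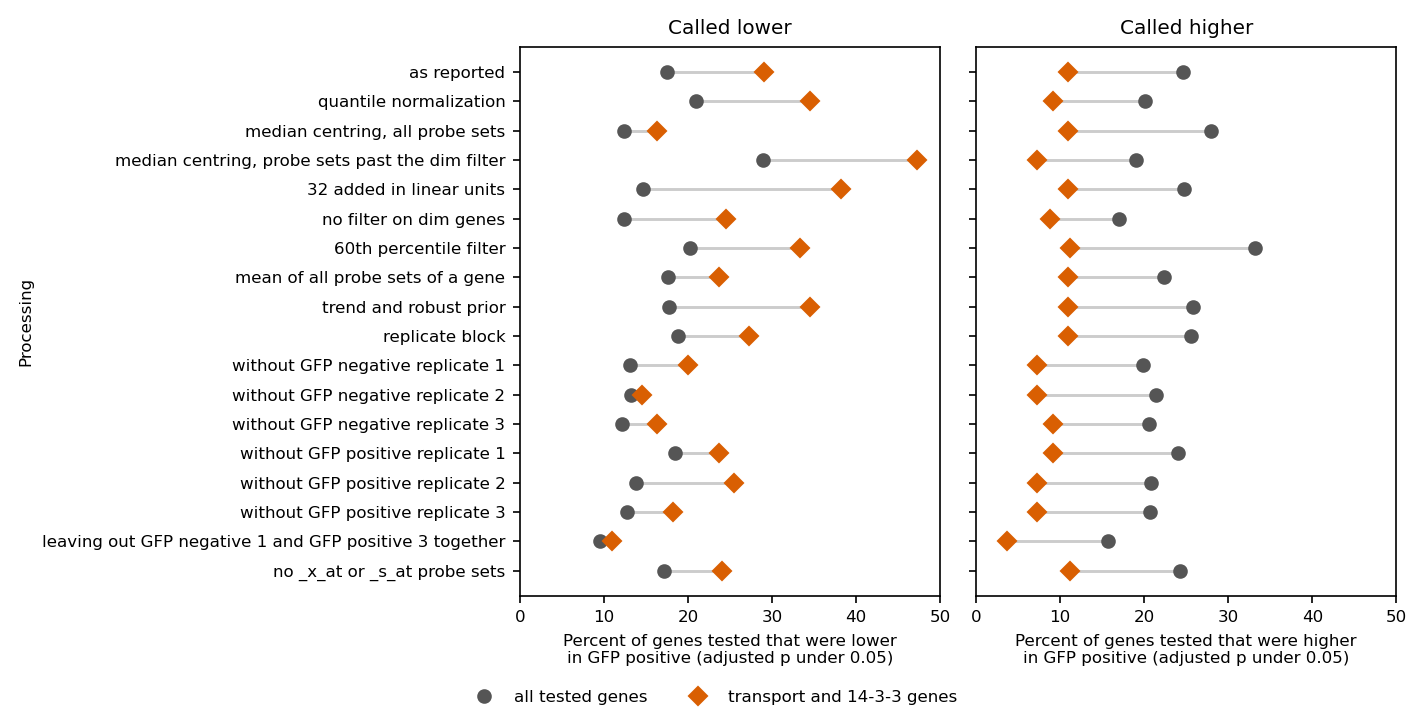
Percentage of genes called lower (left) and higher (right) among all tested genes (grey) and among the transport and 14-3-3 genes (orange), for the reported processing and 17 alternatives. The orange point lies right of the grey one for lower calls and left of it for higher calls in each, and the lower pair nearly meet without GFP negative 2 (14.5% against 13.2%) and without GFP negative 1 and GFP positive 3 together (10.9% against 9.48%).

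The share of lower calls was above that of all genes tested in the reported setting and in 17 of 17 alternatives, by 1.33 to 23.6 percentage points. The share of higher calls was below that of all genes in the same settings. These settings reuse the same 6 samples, and the gap itself was not tested. The scaling between arrays moved the whole distribution: of all genes called, 58.4% were higher as reported, 49.0% after quantile normalization, 69.3% after median centring over all probe sets and 39.6% after median centring over those past the filter. The median difference of all genes was -0.02 as reported and -0.14 in the last of these, where that of the transport and 14-3-3 genes was -0.22.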

How the data were processed

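Each array's deposited values are log2 signals that the authors made with Affymetrix Expression Console, per the submitters' processing notes; its version, algorithm and normalization were not given in the sources used here. A gene was represented by its brightest single-symbol probe set over the 6 arrays, and genes under the 40th percentile of mean signal (log2 1.27) were left out. GFP positive was compared with GFP negative with limma 3.58.1 in R 4.3.3 (lmFit, eBayes; two-sided), with Benjamini-Hochberg adjustment over 13194 genes and a threshold of 0.05; a second fit over probe sets gave the values named as such. In that second fit the brightest probe sets of some called genes missed the threshold. These were Nup210l (limma adjusted p = 0.0503 over probe sets), Tnpo1 (0.056), Tnpo2 (0.059) and Ranbp1 (0.061). The scripts were checked on simulated data. Errors are SE from limma unless marked SD, and intervals are 95%. No genome build of the array annotation was used, so positions of probe sets are not given. Promoter windows, and the positions printed for the E-box stretches, come from RefSeq on GRCm38.p6.

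The members and lists were chosen with earlier results of these data known. Values are given for members past the threshold, all 14-3-3 genes, Ran, Rangap1, Kpnb1, Xpo1 and members whose probe sets disagree, and for the main genes of the transport list; other members are named to complete a complex, which was decided after their values were seen. Same-numbered samples deviated together over all genes (correlations 0.47, 0.35 and 0.25; 0.15, 0.16 and -0.13 over the members), although the labels state no pairing. The reported values come from the fit without a replicate block; the blocked fit is given where it changes a call.

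Alternatives were quantile normalization, 2 median centrings, 32 added in linear units, no filter and a 60th percentile filter, the mean of a gene's probe sets, a trended robust prior, a replicate block, leaving out each array, and leaving out GFP negative 1 with GFP positive 3. The mean of a gene's probe sets takes in those under the dim filter. Probe sets without the _x_at and _s_at classes were added after seeing the data.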

Additional observations from a re-analysis of the deposited data

How the results depend on the processing

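Leaving out arrays, the probe sets and filter were kept as over the 6 arrays. Members lower numbered 16 as reported, 9 with median centring over all probe sets, 26 with it over probe sets past the filter, 8 to 14 without single arrays and 6 without GFP negative 1 and GFP positive 3; members higher numbered 6, 4 to 5 without single arrays and 2 without that pair. Members lower were 8 without GFP negative 2, 9 without GFP negative 3 and 10 without GFP positive 3. Of the other transport genes, 9 were lower as reported, 5 with median centring over all probe sets, 5 with the mean of probe sets and 5 to 8 without single arrays; 0 were higher as reported, 2 with median centring over all probe sets, 1 with the 60th percentile filter, 1 with the mean of probe sets, 2 with the trended robust prior, 2 with the replicate block and 0 to 3 without single arrays. All genes called lower were 2309 as reported and 3819 with median centring past the filter; without that pair of arrays 2074 were higher and 1251 lower. The cause of these shifts was not tested.

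With the replicate block, 6 members were higher and 15 lower, 9 other transport genes lower, and 3371 and 2487 of all genes higher and lower; of the named genes Tnpo1 lost its call (adjusted p = 0.054) and no other call changed.

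Signs turned only for members that did not pass; below, "past the filter" and "over all probe sets" name the median centring used. Kpna1 was -0.12 with quantile normalization, -0.11 with median centring past the filter, -0.13 with the mean of probe sets, -0.089 without the pair and -0.084 to 0.074 without single arrays. Nup153 was 0.17 with the mean of probe sets and -0.18 to 0.0083 without single arrays. Nup62 was -0.085 with median centring past the filter, -0.018 without the pair and -0.012 to 0.097 without single arrays. Ywhae was -0.032 with median centring past the filter, -0.086 with the mean of probe sets, -0.018 without the pair and -0.035 to 0.14 without single arrays. Ywhag was 0.0093 with median centring over all probe sets, Ywhah -0.040 with it past the filter and Ywhaz 0.048 without the _x_at and _s_at classes. Kpna6 was -0.15 with quantile normalization, -0.11 past the filter, -0.10 with the mean of probe sets, -0.083 without the pair and -0.047 to 0.042 without single arrays. Nup155 was 0.067 over all probe sets and -0.060 to 0.097 without single arrays, Nup205 0.045 and -0.072 to 0.030. Nup188 was -0.053 with quantile normalization and -0.039 past the filter, Nup88 -0.0020 and -0.081. Nup50 was -0.053 with quantile normalization, -0.11 past the filter and -0.11 to 0.095 without single arrays, Ranbp9 -0.067, -0.10 and -0.051 to 0.060. Over all probe sets Nup214 was 0.0018 and Tnpo3 0.0080.

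Of the 22 members called, 7 kept the call in all 17 alternatives and 9 lost it in at least 6. The deposited signals give no background level per array.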

Other observations

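Genes for the kinases and phosphatases known to act on class IIa deacetylases were also read from a list. Of 13 tested genes on it, the deacetylases included, 7 were higher and 1, Hdac5, lower, beside 24.6% and 17.5% of all genes tested; 1 of the 7 is Hdac7, the gene the virus carries. Prkd2, a protein kinase D that phosphorylates HDAC7 in T cells, rose from a mean of 6.74 to 7.63 (0.89 ± 0.10, limma adjusted p = 4.2e-04), with 2 further probe sets at 0.83 and 0.77. Ppp1r12a, the targeting subunit of a myosin phosphatase that dephosphorylates HDAC7, rose by 0.83 ± 0.09 (limma adjusted p = 3.2e-04), Camk4 by 0.80 (0.0094), Mark2 by 0.67 (0.0016) and Sik1 by 0.43 (0.0047). Prkd3 rose by 0.32 (limma adjusted p = 0.029), a call lost without GFP negative 2 (0.092), GFP negative 3 (0.057), GFP positive 1 (0.068) or GFP positive 3 (0.080). The Prkd3 call was also lost with quantile normalization (0.20, adjusted p = 0.16) and median centring over probe sets past the filter (0.21, 0.14). With the mean of its probe sets Prkd3 had 0.12 (adjusted p = 0.25). Camk4 had 0.25 (adjusted p = 0.16) with the mean of its probe sets, and 0.53 (0.067) without GFP negative 1 and GFP positive 3 together.

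A dim second probe set of Ipo11, noticed after its values were seen, went from a mean of 1.90 to 3.39 (1.50 ± 0.12, limma adjusted p = 1.6e-04 over probe sets), while the brighter one gave 0.13.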
